A study of Mus musculus with 18 samples.

Results

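Quiescence and antiproliferative factors are genes whose products hold T cells out of growth and division. The 10 examined here are Foxo1, Foxo3 and Foxp1 of the forkhead family, Btg1, Btg2 and Tob1 of the BTG/TOB family, Tsc22d3, Pik3ip1, and the sestrins Sesn1 and Sesn3. They are 10 of the 18194 genes that the arrays measured through a probe set with 1 gene symbol. Each gene was read at the probe set with its highest mean over the 18 arrays, and all 10 lay over the background level of 6.72 on the log2 scale on every array. That level is the 95th percentile of 34 genes of other tissues that T cells are not expected to use.

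The study asked how single common gamma chain (γc) cytokines change CD8+ T cells shortly after antigen priming. Naive CD8+ T cells came from spleens of OT-I TCR Tg Thy1.1 mice, labelled male, whose transgenic T cell receptor sees a peptide of ovalbumin. They were primed for 48 hours with irradiated C57BL/6 splenocytes that had been loaded with the peptide, and live cells were recovered over a density gradient. They were then cultured for 24 hours with 1 cytokine (IL-2, IL-15, IL-4, IL-21 or IL-7) at a dose of 100 ng/ml, or in plain media as the media control, and each group has 3 biological replicates. All groups therefore share the transgene, the priming and the gradient step, and the OT-I cells carry 1 receptor specificity. The labels do not name the animals behind each replicate, so p-values measure the spread between these cultures.

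A resting T cell keeps its growth programme low by several routes. FOXO factors stay in the nucleus when signalling from PI3K to AKT is weak and switch on genes of survival, homing and arrest. BTG and TOB proteins recruit the CCR4-NOT deadenylase to messages, and both PIK3IP1 and the sestrins damp growth signals, the first at PI3K and the sestrins at mTORC1. Antigen and γc cytokines act against this state, through PI3K as well as through STAT factors.

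The deposited values of replicate 3 of IL-2, of IL-15 and of media control had medians between 4.47 and 4.52, and the other 15 arrays had medians between 5.76 and 5.84. As deposited, the median change of all genes was 0.43 under IL-4 and under IL-21, and 0.42 under IL-7. After quantile normalization of all 18 arrays it lay between -0.02 and 0.01 for the 5 cytokines, and changes below are on that scale. The mean of 9 T cell markers was 11.50 to 11.78 under IL-2 and 12.24 to 12.55 in media control. It was 11.93 to 12.46 with the other cytokines. Limma called 6 of the 9 lower under IL-2, where it called 8% of all genes lower, and their median change was -0.93. It called 3 lower under IL-4 (5.1% of all genes), 1 under IL-7 (0.747%), 0 under IL-15 (0%) and 1 under IL-21 (3.29%). With the replicate number as a block, 7 were lower under IL-2 (15.1% of all genes). Several markers of other spleen cells were detected and were highest in media control, as the factors were. Lyz2, a myeloid lysozyme, averaged 6.42 under IL-2, 6.99 under IL-4, 7.15 under IL-7, 8.02 under IL-15, 7.65 under IL-21 and 9.34 in media control. H2-Aa, an MHC class II chain, averaged 7.33 under IL-2, 7.84 under IL-4, 7.74 under IL-7, 8.63 under IL-15, 7.94 under IL-21 and 9.57 in media control. The mean of 8 myeloid markers ran from 4.92 to 6.18 over the arrays with cytokines and from 5.38 to 6.57 in media control, where 3 of the 8 passed the background level. The mean of 7 B cell markers ran from 5.01 to 5.69 with cytokines and from 5.39 to 5.95 in media control, with 1 of the 7 over that level in media control, and 0 of 3 CD4 T cell markers passed the background level in any group. The part that other cells play in the changes below was not tested. In RNA of whole cultures, fewer cells of a type and less RNA per cell cannot be told apart.

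Promoter sequences are shown for Btg1, the factor with a forkhead core in the window searched, and for Pik3ip1 and Sesn3, which changed most under IL-2. They are the 250 bases before the annotated start from RefSeq (GRCm38.p6), read 5′ to 3′ on the gene's strand, and capitals mark a match to GTAAACA or its reverse complement. The windows are chr10:96616751-96617000 on the plus strand for Btg1, chr11:3330481-3330730 on the plus strand for Pik3ip1 and chr9:14276051-14276300 on the plus strand for Sesn3.
Btg1: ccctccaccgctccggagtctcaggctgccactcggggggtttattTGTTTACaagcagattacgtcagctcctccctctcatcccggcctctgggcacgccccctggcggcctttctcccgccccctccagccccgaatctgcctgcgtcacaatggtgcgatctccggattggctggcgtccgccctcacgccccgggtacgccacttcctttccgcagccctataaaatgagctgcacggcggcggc
Pik3ip1: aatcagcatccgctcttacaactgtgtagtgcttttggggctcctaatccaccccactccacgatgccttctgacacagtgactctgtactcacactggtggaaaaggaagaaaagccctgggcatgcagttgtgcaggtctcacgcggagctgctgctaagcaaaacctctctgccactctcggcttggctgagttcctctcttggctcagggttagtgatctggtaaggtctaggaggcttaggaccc
Sesn3: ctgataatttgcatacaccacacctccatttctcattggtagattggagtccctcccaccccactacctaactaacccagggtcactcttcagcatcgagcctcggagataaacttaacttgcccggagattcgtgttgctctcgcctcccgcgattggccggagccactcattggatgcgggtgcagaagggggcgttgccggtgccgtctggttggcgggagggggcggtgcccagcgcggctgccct
The core stood once, before Btg1, on the reverse strand and 204 bases before the start. It was found in 1 of the 15 annotated starts of the 10 genes, and in 3.17% of the 32851 mouse promoters read over the same 250 bases on both strands. The palindrome TTCNNNGAA, the letters that STAT dimers read, stood in 1 of the 15 starts, before the third annotated start of Tsc22d3, and in 7.02% of all promoters. CACGTG, the E-box, and ACANNNTGT, the core of the glucocorticoid response element, stood in 0 of the 15 starts, and in 6.02% and 5.84% of all promoters. No match in a window of this length says nothing about sites elsewhere.

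Some of the quiescence factors fell with each cytokine except IL-15, most under IL-2 and fewest under IL-7. IL-2 gave the lowest group mean for 8 of the 10 genes, and media control gave the highest for 9, the exception being Tob1. With limma and adjustment over all genes, 6 of the 10 fell under IL-2, where 8% of all genes were called lower. IL-4 lowered 5 of the 10, against 5.1% of all genes. IL-7 lowered 1 of the 10, against 0.747% of all genes, and IL-21 lowered 4, against 3.29%. With IL-15 the count was 0, as it was over all genes, with 0 members and 390 genes at an unadjusted p under 0.05. No factor rose with any cytokine. The shares of all genes count genes under the background level too, whereas all 10 factors lay over it. Of the 18194 genes, 8832 lay over that level. A filter at that level gave 3112 genes called in either direction under IL-2, against 2880 without it. The shares of all genes are therefore a low bar for these factors, which were not compared with genes of like level.

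Cultures with the same replicate number deviated together, so the same comparisons were also run with the replicate number as a block. The members called lower were then 8 under IL-2, 8 under IL-4, 6 under IL-7, 0 under IL-15 and 7 under IL-21. The block called 15.1%, 12.9%, 8.01%, 0% and 10.5% of all genes lower in those comparisons. For IL-15 the block left 3 members and 1566 genes at an unadjusted p under 0.05. The median change of the 10 genes was -1.05 under IL-2, -0.84 under IL-4, -0.56 under IL-7, -0.23 under IL-15 and -0.89 under IL-21. All 5 comparisons use the same 3 media control arrays, so they are not independent of each other. On the values as deposited, without a block, 1 factor passed under IL-2, Btg2, and 0 passed with any other cytokine.

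**Figure D1:**
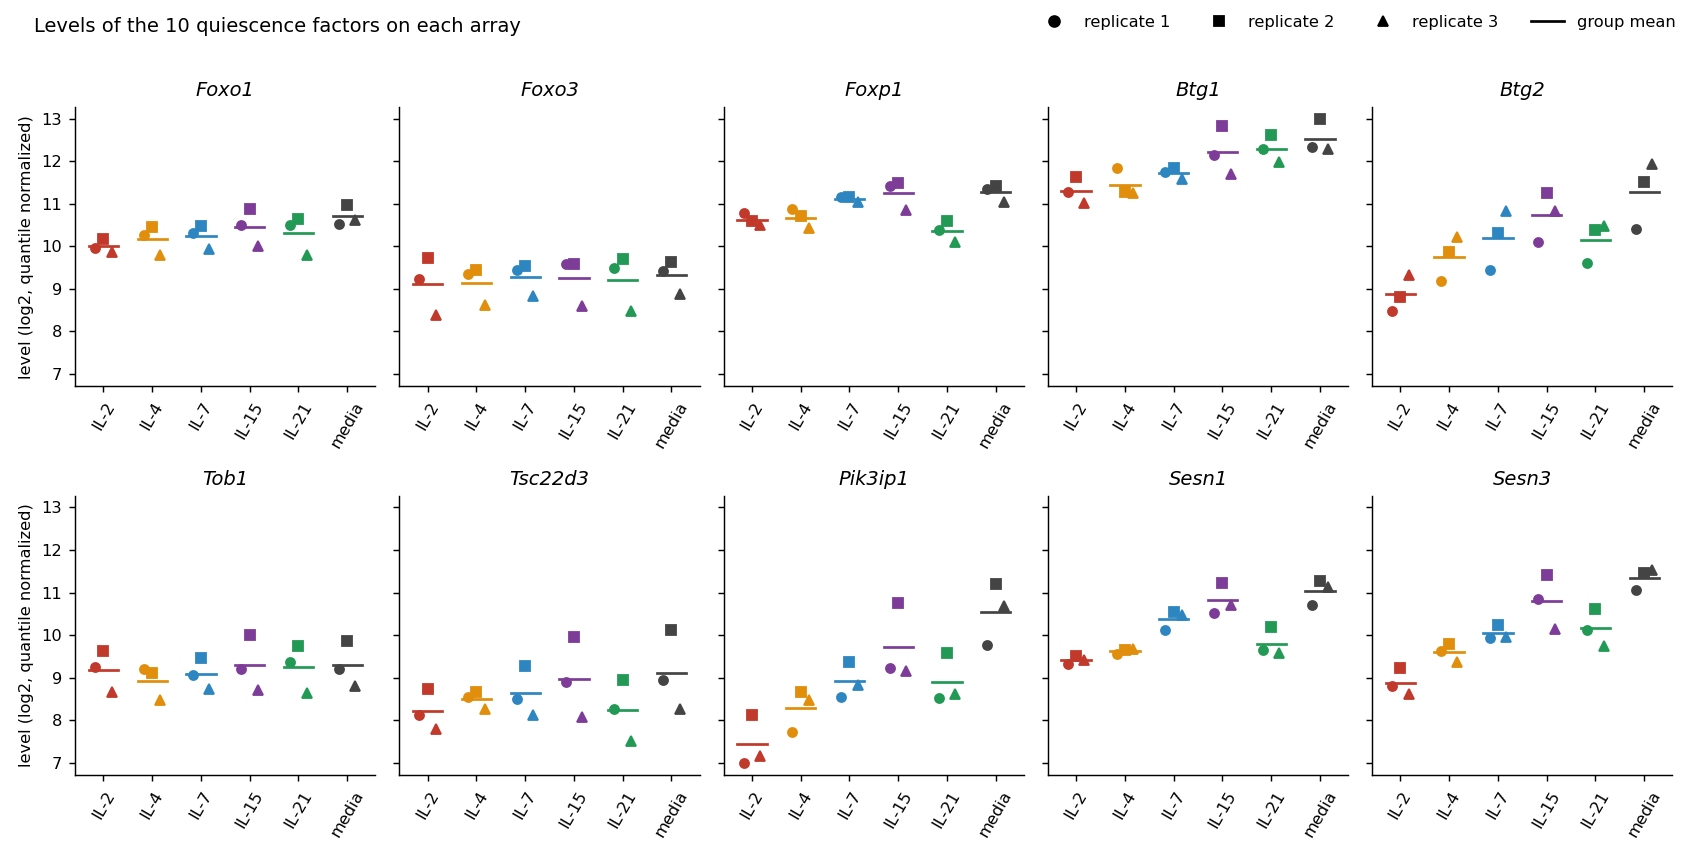
Level of each of the 10 quiescence factors (log2, quantile normalized, vertical axis) on the 3 arrays of each group, with the group mean as a bar; the groups run from IL-2 to IL-21, with media control (media) at the right. Pik3ip1, Btg2 and Sesn3 step down most under IL-2, while Foxo3 and Tob1 differ more between replicates than between groups.

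Pik3ip1 encodes a membrane protein that binds and restrains the catalytic subunit of PI3K, and it fell most of the 10 under IL-2. Its log2 level at probe set 1428332_at was 7.0, 8.12 and 7.16 under IL-2, 7.73, 8.65 and 8.48 under IL-4, and 8.54, 9.37 and 8.82 under IL-7 on replicates 1, 2 and 3. It was 9.22, 10.76 and 9.16 under IL-15 and 8.52, 9.58 and 8.62 under IL-21, against 9.77, 11.21 and 10.68 in media control. Apart from those with IL-15, which overlapped media control, every cytokine array lay below every media control array. The change under IL-2 was -3.13 ± 0.47 (SE), 8.74-fold lower, with a 95% interval of -4.13 to -2.13 (limma, adjusted p = 0.000323). The change under IL-4 was -2.26 ± 0.47 (adjusted p = 0.00624) and under IL-21 -1.65 ± 0.47 (adjusted p = 0.0482).
With IL-7 it was -1.64 ± 0.47, which missed the threshold (adjusted p = 0.097) and passed with the replicate block (adjusted p = 0.000406). With IL-15 it was -0.84, with an interval of -1.84 to 0.16 (adjusted p = 1). The call under IL-21 was lost on leaving out any of 13 of the 18 arrays singly, with the adjusted p highest at 0.212 without media control replicate 2. It stayed under the threshold without IL-2 replicate 2, IL-15 replicates 2 and 3, IL-21 replicate 2 or media control replicate 1.

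The sestrins inhibit mTORC1 by way of the GATOR complexes that report amino acid supply. Sesn3, itself a known FOXO target, was the only factor that fell with every cytokine other than IL-15 without the block, and with the block Foxo1, Btg2, Pik3ip1 and Sesn1 did so as well. At probe set 1449303_at its log2 level was 8.80, 9.22 and 8.62 under IL-2, 9.63, 9.78 and 9.36 under IL-4, and 9.94, 10.23 and 9.95 under IL-7. It was 10.85, 11.42 and 10.14 under IL-15 and 10.12, 10.62 and 9.75 under IL-21, against 11.05, 11.45 and 11.54 in media control. The media control arrays stood above all arrays of those 4 cytokines and overlapped those under IL-15. The change was -2.46 ± 0.28 under IL-2, 5.51-fold lower (limma, adjusted p = 3.82e-05), and -1.76 ± 0.28 under IL-4 (adjusted p = 0.000949). It was -1.30 ± 0.28 under IL-7 (adjusted p = 0.03) and -1.18 ± 0.28 under IL-21 (adjusted p = 0.0169). With IL-15 it was -0.54, with an interval of -1.14 to 0.06. The IL-7 call was lost without media control replicate 2 (adjusted p = 0.127) or 3 (0.122), or without IL-7 replicate 1 (0.139), 2 (0.0797) or 3 (0.0905). The IL-21 call was lost without media control replicate 2 (adjusted p = 0.0689) or 3 (0.0714), or IL-21 replicate 1 (0.0642) or 3 (0.0882).

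Sesn1, a sestrin known as a p53 target, had the tightest replicates of the strongly lowered genes. The log2 level of this gene at probe set 1433711_s_at was 9.33, 9.51 and 9.42 under IL-2, 9.56, 9.64 and 9.68 under IL-4, and 10.11, 10.55 and 10.46 under IL-7. It was 10.52, 11.22 and 10.70 under IL-15 and 9.64, 10.18 and 9.58 under IL-21, against 10.71, 11.27 and 11.12 in media control. IL-2 and IL-4, like IL-21, left its mean more than 1 log2 unit below media control, IL-7 gave a value in between, and IL-15 overlapped media control. The change was -1.61 ± 0.20 under IL-2, 3.05-fold lower (limma, adjusted p = 7.44e-05), -1.41 ± 0.20 under IL-4 (adjusted p = 0.000386) and -1.23 ± 0.20 under IL-21 (adjusted p = 0.00122). With IL-7 the change of -0.66 ± 0.20 missed the threshold (adjusted p = 0.119) and passed with the replicate block (adjusted p = 0.00375). With IL-15 it was -0.22, with an interval of -0.65 to 0.21.

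Btg2, which slows the cell cycle through message deadenylation, gave some of the largest steps but also differed between replicates. Its log2 level at probe set 1416250_at was 8.47, 8.80 and 9.33 under IL-2, 9.19, 9.86 and 10.22 under IL-4, and 9.44, 10.31 and 10.82 under IL-7. It was 10.09, 11.25 and 10.83 under IL-15 and 9.60, 10.39 and 10.47 under IL-21, against 10.41, 11.50 and 11.94 in media control. Only under IL-2 and IL-4 did no array reach the media control arrays, of which replicate 1 was the low one. The change under IL-2 was -2.41 ± 0.44, 5.33-fold lower (limma, adjusted p = 0.0013), and under IL-4 -1.52 ± 0.44 (adjusted p = 0.041). With IL-7 it was -1.09 ± 0.44 (adjusted p = 0.253) and under IL-21 -1.13 ± 0.44 (adjusted p = 0.167), and both passed with the replicate block (adjusted p = 0.00139 and 0.000314). With IL-15 it was -0.56, with an interval of -1.49 to 0.38. The IL-4 call was lost without media control replicate 2 (-1.42, adjusted p = 0.144) or 3 (-1.19, 0.169) and without IL-4 replicate 1 (-1.24, 0.177) or 2 (-1.58, 0.0913). It was also lost without replicate 2 of IL-2 (adjusted p = 0.052), of IL-7 (0.0541) or of IL-21 (0.051).

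Btg1, the partner of Btg2 in holding naive T cells at rest, followed IL-2 and IL-4 but not IL-21. At probe set 1437455_a_at its log2 level was 11.28, 11.63 and 11.01 under IL-2, 11.83, 11.27 and 11.24 under IL-4, and 11.75, 11.85 and 11.59 under IL-7. It was 12.15, 12.82 and 11.70 under IL-15 and 12.29, 12.61 and 11.97 under IL-21, against 12.33, 12.98 and 12.28 in media control. All arrays of the IL-2 group, the IL-4 group and the IL-7 group lay below media control, and those under IL-21 and IL-15 reached into it. The change was -1.22 ± 0.28 under IL-2, 2.33-fold lower (limma, adjusted p = 0.00592), and -1.08 ± 0.28 under IL-4 (adjusted p = 0.0214). With IL-7 it was -0.80 ± 0.28 (adjusted p = 0.168, with the replicate block 0.0103). With IL-21 it was -0.24, with an interval of -0.82 to 0.35, and the block did not bring it past the threshold (adjusted p = 0.412). The IL-4 call was lost without media control replicate 2 (-0.85, adjusted p = 0.122), IL-4 replicate 2 (-0.99, 0.0857) or IL-4 replicate 3 (-0.98, 0.0852).

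Tob1, the remaining member of that family and a known brake on T cell proliferation, did not pass in any comparison. Its log2 level at probe set 1423176_at ran from 8.65 to 9.62 under IL-2, from 8.47 to 9.21 under IL-4 and from 8.73 to 9.47 under IL-7. It ran from 8.70 to 10 under IL-15 and from 8.63 to 9.74 under IL-21, against 8.80 to 9.87 in media control. The 6 groups overlapped, and in every group replicate 3 was the lowest array. The changes lay between -0.37 and 0.01, each with an SE of 0.38. The interval was -0.92 to 0.69 under IL-2, -1.17 to 0.44 under IL-4 and -1.02 to 0.60 under IL-7. A fall of 1 on the log2 scale therefore lay inside it for IL-4 and IL-7.

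Foxp1, a forkhead repressor that keeps naive T cells from dividing, was lowest under IL-21 instead of IL-2. The log2 level of this gene at probe set 1435222_at was 10.78, 10.59 and 10.51 under IL-2, 10.88, 10.70 and 10.42 under IL-4, and 11.15, 11.16 and 11.05 under IL-7. It was 11.41, 11.49 and 10.84 under IL-15 and 10.37, 10.60 and 10.09 under IL-21, against 11.35, 11.42 and 11.04 in media control. No array under IL-21, IL-2 or IL-4 reached the media control range, whereas those under IL-7 and IL-15 lay in or beside it. The change was -0.91 ± 0.18 under IL-21, 1.88-fold lower (limma, adjusted p = 0.00553), and -0.64 ± 0.18 under IL-2 (adjusted p = 0.0234). With IL-4 it was -0.60 ± 0.18, which just missed the threshold (adjusted p = 0.0518) and passed with the replicate block (adjusted p = 0.00104). With IL-7 it was -0.15 and under IL-15 -0.02, with intervals of -0.54 to 0.24 and -0.41 to 0.37. The IL-2 call was lost without media control replicate 1 (-0.60, adjusted p = 0.071) or 2 (-0.57, 0.105) and without IL-2 replicate 2 (-0.62, 0.0677) or 3 (-0.58, 0.075).

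Foxo1, the FOXO factor best known for driving Il7r and homing genes in naive T cells, missed the threshold with every cytokine without a block. At probe set 1416983_s_at its log2 level was 9.96, 10.17 and 9.86 under IL-2, 10.26, 10.46 and 9.80 under IL-4, and 10.32, 10.47 and 9.93 under IL-7. It was 10.51, 10.87 and 10.01 under IL-15 and 10.49, 10.65 and 9.79 under IL-21, against 10.53, 10.97 and 10.61 in media control. Each array of the IL-2 group, the IL-4 group and the IL-7 group lay below all 3 of media control. The change was -0.71 ± 0.25 under IL-2 (limma, adjusted p = 0.0746), -0.53 under IL-4 (0.249), -0.47 under IL-7 (0.439) and -0.40 under IL-21 (0.497). With the replicate block these 4 passed, with adjusted p of 0.000479, 0.00603, 0.0218 and 0.0382. The IL-2 change also passed with the filter at the background level (adjusted p = 0.0415) and with the extraction kit as a term (0.00267). It passed without replicate 3 of all groups (0.0191), of IL-15 (0.0487) or of IL-21 (0.0433). Probe set 1416981_at, put in place of the chosen one, passed with adjustment over genes (-1.03, 0.0451) and missed with adjustment over all probe sets (0.0546). The IL-4 change passed with the kit term (0.0241). With IL-15 the change was -0.24, with an interval of -0.78 to 0.30.

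Foxo3, the related FOXO factor, did not pass with or without the block. Its log2 level at probe set 1434831_a_at ran from 8.39 to 9.73 under IL-2, from 8.62 to 9.45 under IL-4 and from 8.83 to 9.54 under IL-7. It ran from 8.59 to 9.59 under IL-15 and from 8.47 to 9.69 under IL-21, against 8.88 to 9.64 in media control. The groups overlapped throughout, and replicate 3 was the lowest array of each. The changes lay between -0.19 and -0.04, with an SE of 0.40, and the interval under IL-2 was -1.04 to 0.65.

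Tsc22d3 encodes the glucocorticoid-induced leucine zipper, a FOXO and steroid target that restrains inflammatory transcription. Its log2 level at probe set 1420772_a_at was 8.12, 8.73 and 7.79 under IL-2, 8.54, 8.67 and 8.27 under IL-4, and 8.49, 9.28 and 8.13 under IL-7. It was 8.90, 9.96 and 8.07 under IL-15 and 8.27, 8.95 and 7.50 under IL-21, against 8.94, 10.11 and 8.25 in media control. Each group overlapped media control, and replicate 2 was the high array in all 6 groups. The change was -0.88 ± 0.51 under IL-2 (limma, adjusted p = 0.338), -0.86 under IL-21 (0.449), -0.61 under IL-4 (0.58) and -0.47 under IL-7 (0.729). With the replicate block those under IL-2, IL-21 and IL-4 passed (adjusted p = 0.00454, 0.0094 and 0.0484), and that under IL-7 did not (0.152). With IL-15 it was -0.12, with an interval of -1.21 to 0.96.

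**Figure D2:**
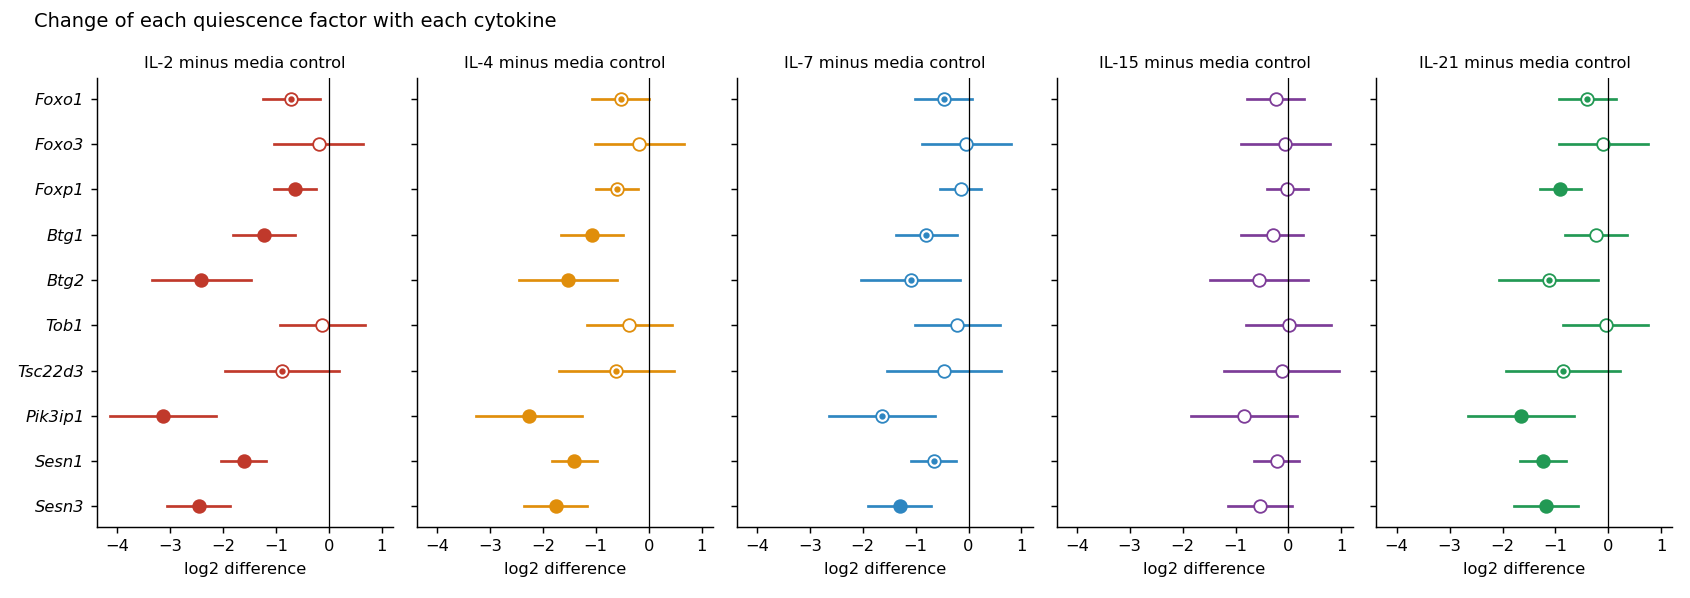
Log2 difference of each cytokine against media control (horizontal axis) for the 10 quiescence factors, with 95% intervals from limma. Filled circles passed at an adjusted p under 0.05, circles with a dot passed with the replicate number as a block and not without it, and open circles passed in neither. Pik3ip1 reaches -3.13 under IL-2, and under IL-15 all 10 circles are open.

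Over the 6 groups together, limma's moderated F test passed for 6 of the 10 genes, against 13.9% of all genes. These were Sesn1 (adjusted p = 0.000139), Sesn3 (0.000235), Pik3ip1 (0.00292), Foxp1 (0.00634), Btg2 (0.0142) and Btg1 (0.019). Foxo1 (0.481), Tsc22d3 (0.832), Foxo3 (1) and Tob1 (1) did not pass. The group means of the genes moved in much the same order, as a description over 6 means that share their arrays. The correlation over the 45 pairs of genes had a median of 0.86 and ran from 0.31 to 1, and it lay between 0.97 and 1 among Btg2, Pik3ip1, Sesn3 and Foxo1.

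Within replicate numbers, 39 of the 50 combinations of a gene and a cytokine were lower on all 3 cytokine arrays than on the media control array of the same number. That held for 8 of the 10 genes under IL-2, where 24.7% of all genes were so, and for 8 under IL-4 (23.4%), 8 under IL-7 (26.1%) and 8 under IL-21 (24.6%). With IL-15 it held for 7 of the 10 genes, against 18.2% of all genes, although none passed the test. The IL-15 differences were small in replicates 1 and 2 and larger in replicate 3, the lowest of the 3 for all 10 genes. Sesn3 differed by -0.19, -0.03 and -1.39 in replicates 1, 2 and 3. Pik3ip1 differed by -0.55, -0.46 and -1.52, and Btg2 by -0.32, -0.24 and -1.11. IL-15 replicate 3 is 1 of the 3 arrays on the lower scale, and so is its media control partner. In a fit without the block that left out IL-15 replicate 3 and kept media control replicate 3, the change of Sesn3 was -0.21. That of Pik3ip1 was -0.56 and that of Btg2 -0.61.

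**Figure D3:**
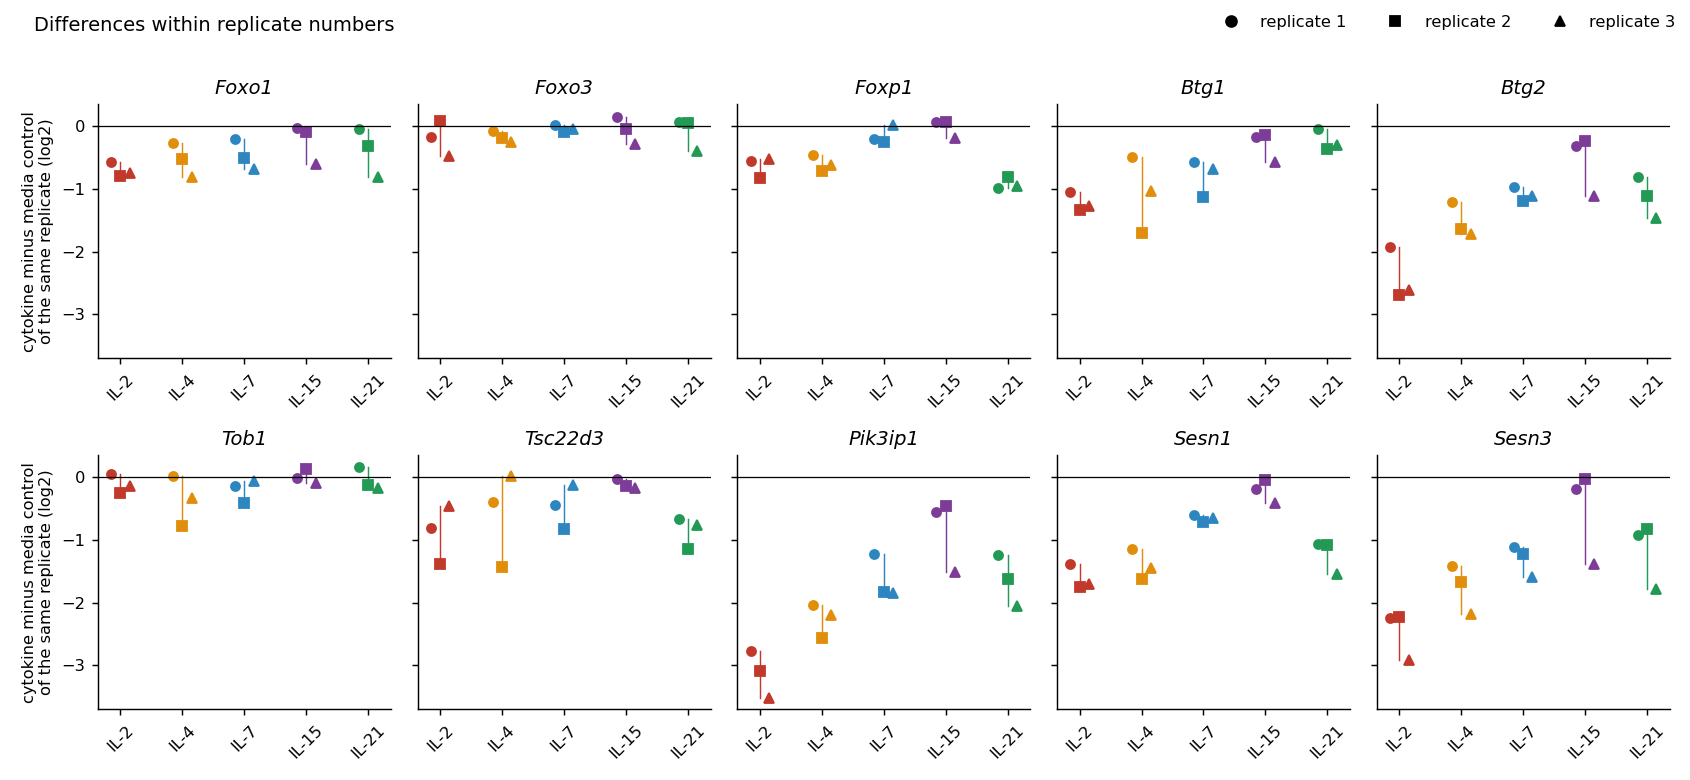
Difference of each cytokine array from the media control array of the same replicate number (log2, vertical axis) for the 10 quiescence factors, with 1 point per replicate and a line spanning the 3. The IL-15 triangles (replicate 3) sit below the other IL-15 points, at -1.39 for Sesn3 and -1.52 for Pik3ip1.

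Between cytokines, the 10 genes were compared over the 10 pairs, and 13 of the 100 combinations passed after adjustment over all genes of a pair. With the replicate block 38 passed. The block called 3 members between IL-2 and IL-4 (10.6% of all genes), 5 between IL-2 and IL-7 (11.1%), 8 between IL-2 and IL-15 (22.4%) and 5 between IL-2 and IL-21 (21.4%). It called 2 between IL-4 and IL-7 (5.18%), 6 between IL-4 and IL-15 (14.1%), 1 between IL-4 and IL-21 (11.7%), 0 between IL-7 and IL-15 (0.335%), 2 between IL-7 and IL-21 (8.89%) and 6 between IL-15 and IL-21 (12.6%). Without the block, IL-2 stood apart from IL-15 most, with 5 of the 10 genes lower, against 4.35% of all genes. Pik3ip1 differed by -2.29 ± 0.47 between IL-2 and IL-15 (limma, adjusted p = 0.0063), Sesn3 by -1.92 ± 0.28 (0.000623), Btg2 by -1.86 ± 0.44 (0.0144), Sesn1 by -1.39 ± 0.20 (0.000574) and Foxp1 by -0.62 ± 0.18 (0.0455). IL-4 stood below IL-15 for Sesn3, at -1.22 (adjusted p = 0.0234), and for Sesn1, at -1.19 (0.00288), 2 genes against 2.09% of all genes. IL-2 against IL-7 gave 1 gene, Sesn1, at -0.95 (adjusted p = 0.0276), against 0.896% of all genes lower. Pik3ip1 differed there by -1.49, with an interval of -2.49 to -0.48, and missed the threshold (adjusted p = 0.166).

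Against IL-21 the direction of the calls followed the other cytokine, with genes higher under IL-7 and IL-15 and lower under IL-2. Foxp1 was higher under IL-7 than under IL-21, by 0.76 ± 0.18 (limma, adjusted p = 0.0372), 1 gene against 0.797% of all genes. It was also higher under IL-15 than under IL-21, by 0.89 ± 0.18 (adjusted p = 0.0103), as was Sesn1, by 1.01 ± 0.20 (0.00845), 2 genes against 1.48%. Btg1 was lower under IL-2 than under IL-21, at -0.98 ± 0.28 (adjusted p = 0.043), and so was Sesn3, at -1.28 ± 0.28 (0.0111), 2 genes against 3.71%. Btg1 was also lower under IL-4 than under IL-21, at -0.84 with an interval of -1.43 to -0.26, which missed the threshold without the replicate block (adjusted p = 0.131) and passed with it (0.00696).

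The remaining pairs gave 0 members at an adjusted p under 0.05 by limma. IL-2 against IL-4, where 2.07% of all genes passed, had a lowest adjusted p of 0.328, with 1 member and 1915 genes at an unadjusted p under 0.05, and its interval for Sesn3 was -1.30 to -0.11. IL-4 against IL-7 (1.34% of all genes) had a lowest adjusted p of 0.099, with 2 members and 1257 genes at an unadjusted p under 0.05, and an interval for Pik3ip1 of -1.63 to 0.38. IL-4 against IL-21 (3.81% of all genes) had 1 member and 2138 genes at that unadjusted p. IL-7 against IL-15 (0.011% of all genes) had a lowest adjusted p of 0.963, with 2 members and 808 genes, and an interval for Sesn3 of -1.36 to -0.17. These intervals do not show that the cytokines act alike.

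Of the 13 calls between cytokines, 4 were kept on leaving out each of the 18 arrays singly, those of Pik3ip1, Sesn1 and Sesn3 between IL-2 and IL-15 and of Sesn1 between IL-4 and IL-15. Sesn3 between IL-2 and IL-21 was lost without IL-21 replicate 2 (adjusted p = 0.0777). Btg2 between IL-2 and IL-15 was lost without IL-2 replicate 1 (0.0788) or IL-15 replicate 2 (0.0988), and Sesn1 between IL-15 and IL-21 without IL-15 replicate 2 (0.0521) or IL-21 replicate 1 (0.0517). Foxp1 between IL-15 and IL-21 was lost without IL-15 replicate 1 (0.0558) or 2 (0.0652) or IL-21 replicate 3 (0.0549). Sesn1 between IL-2 and IL-7 was lost without any IL-2 array or without IL-7 replicate 2 or 3, with adjusted p up to 0.167. Sesn3 between IL-4 and IL-15 was lost without any IL-4 array or without IL-15 replicate 1 or 2, with adjusted p up to 0.144. Foxp1 between IL-7 and IL-21 was lost without any of 8 arrays, with adjusted p up to 0.159, which were all of IL-7, replicates 1 and 3 of IL-21, replicate 2 of IL-2 and of IL-4, and replicate 1 of media control. Btg1 between IL-2 and IL-21 was lost without any of 10, with adjusted p up to 0.211, which were all of IL-7, replicates 1 and 3 of IL-2, 2 and 3 of IL-4, 1 of IL-15, and 1 and 2 of IL-21. Foxp1 between IL-2 and IL-15 was lost without any of 12, with adjusted p up to 0.253. These were all arrays of IL-2 and of IL-7, and replicates 1 and 2 of IL-15 and of media control. Replicate 2 of IL-4 and replicate 1 of IL-21 were the others. Of the 4 kept singly, Pik3ip1 (limma, adjusted p = 0.0988) and Sesn3 (0.095) between IL-2 and IL-15 were lost without replicate 1 of all groups. Sesn1 between IL-4 and IL-15 was lost without replicate 1 (0.0572) or 2 (0.0727) of all groups. Sesn1 between IL-2 and IL-15 was kept without any replicate number.

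The 10 genes have 34 probe sets, of which 28 lay over the background level, and the other 18 of these repeat each comparison on separate probes of the same RNA. For IL-2 and IL-4, and for IL-21, all 18 were lower than in media control. With IL-7 16 of the 18 were lower and under IL-15 14. Those that passed over all probe sets were 10 of the 18 under IL-2 (5.95% of all probe sets passed lower), 8 under IL-4 (3.59%), 2 under IL-7 (0.435%), 0 under IL-15 (0%) and 6 under IL-21 (2.44%). All 3 probe sets of Btg1 passed under IL-2, with changes of -2.14 to -1.22, and under IL-4, with changes of -1.64 to -1.08. With IL-21 the 3 gave -0.58 to -0.24. Both probe sets of Pik3ip1 passed under IL-2, at -3.13 and -3.01, and under IL-4, at -2.26 and -2.16. Its other probe set, 1439087_a_at, also passed under IL-7 (-1.75, limma, adjusted p = 0.0451) and IL-21 (-1.76, 0.0139). The chosen one missed there with adjustment over all probe sets (0.124 and 0.0601). The other probe set of Btg2, 1448272_at, passed neither under IL-2 (-1.98, adjusted p = 0.0993) nor under IL-4 (-1.26, 0.41). The other of Sesn3, 1453313_at, passed under IL-2 (-1.91, adjusted p = 6.72e-05) and IL-4 (-1.08, 0.00765), and did not pass under IL-7 (-0.84, 0.0978) or IL-21 (-0.59, 0.189). Foxp1 had 7 probe sets over background, of which 5 passed lower under IL-2, 2 under IL-4 and 4 under IL-21, and the 7 ran from -1.14 to -0.62 under IL-21. With IL-7 they ran from -0.36 to 0.29. The probe sets chosen for Foxo1 and Sesn1 carry the suffix _s_at, which marks probes shared by more than 1 transcript, and the others of these genes over background moved the same way in all comparisons but that of IL-15. Those chosen for Foxo3, Btg1 and Tsc22d3 end in _a_at. The probe sets used for H2-Aa above and for Tsc22d1 and Eif4ebp1 below end in _x_at. These too may not read 1 transcript alone.

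**Figure D4:**
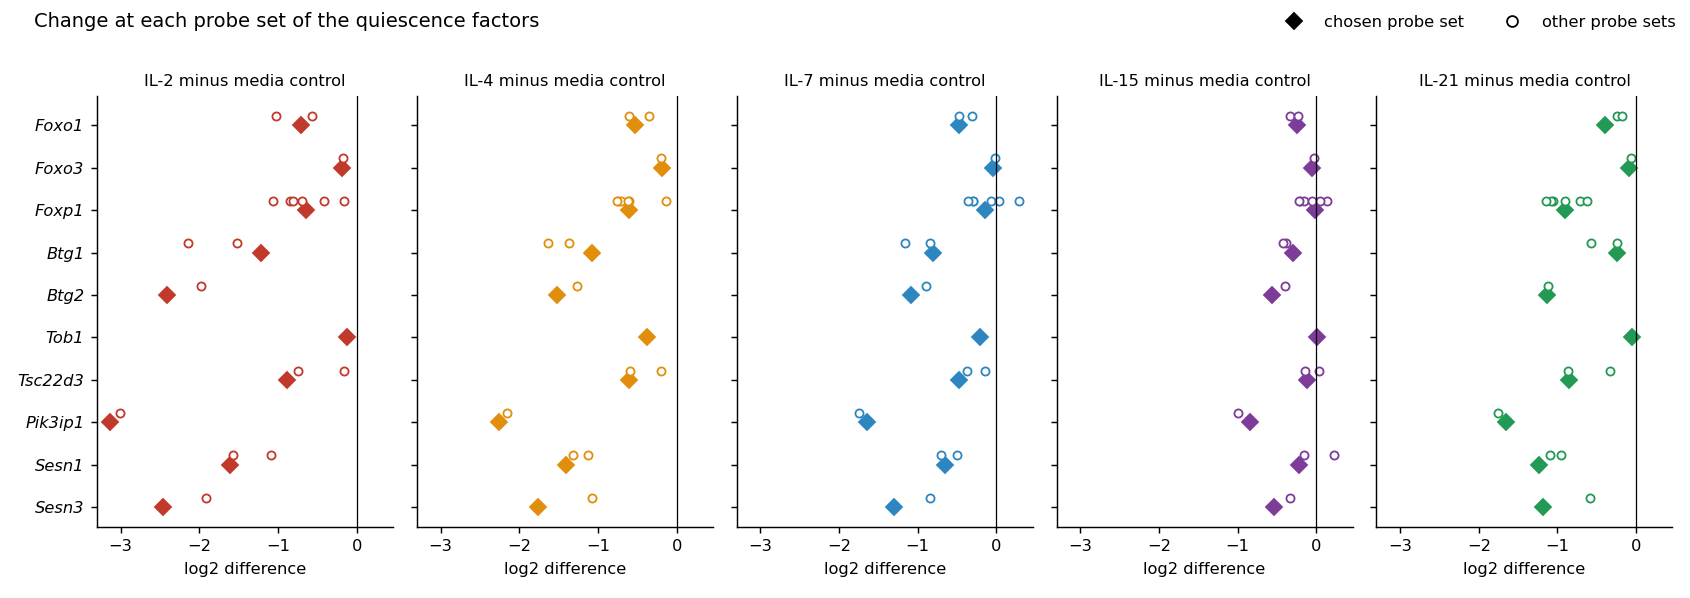
Log2 difference of each cytokine against media control (horizontal axis) for every probe set of the 10 quiescence factors over the background level, with the chosen probe set as a filled diamond and the others as open circles. All points lie left of 0 in the IL-2 panel, the IL-4 panel and the IL-21 panel, and Pik3ip1 gives -3.13 and -3.01 under IL-2 at its 2 probe sets.

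Several genes that FOXO factors are known to drive fell as well. Of 17 listed, 15 were measured, and 8 fell and 1 rose under IL-2, 6 fell under IL-4, 1 under IL-7, 0 under IL-15 and 4 under IL-21. The replicate block gave 11 that fell under IL-2, 11 under IL-4, 7 under IL-7, 0 under IL-15 and 7 under IL-21, with 1, 1, 1, 0 and 2 that rose. Their median change was -1.03, -0.63, -0.41, -0.13 and -0.20 in that order of cytokines, against -0.02 to 0.01 for all genes. Limma called 8% of all genes lower under IL-2, 5.1% under IL-4, 0.747% under IL-7, 0% under IL-15 and 3.29% under IL-21. With the block it called 15.1%, 12.9%, 8.01%, 0% and 10.5% lower. Klf2, a factor of T cell trafficking and rest, fell with 3 cytokines, at -3.41 ± 0.45 (SE) under IL-2, -3.59 under IL-4 and -2.87 under IL-21, and its change was -0.88 under IL-7 and -0.33 under IL-15. S1pr1, the receptor that lets T cells leave lymphoid tissue, fell with the same 3, at -2.94 under IL-2, -4.36 under IL-4 and -1.89 under IL-21. Its level of 5.44 under IL-4 lies below background, which leaves that change without an exact size. Bcl2l11, which encodes the death protein BIM, fell by 2.69 under IL-2 (adjusted p = 2.2e-05), and its change was -0.52 under IL-4 and 0.21 under IL-21. Fbxo32, a ubiquitin ligase, fell as well, at -1.91 under IL-4 and -1.40 under IL-21, to levels of 5.97 and 6.48 that lie below background. Bcl6 fell under IL-7 (adjusted p = 0.0361), to a level of 5.71, likewise below background, against 7.37 in media control. The gene that rose under IL-2 was Sod2, by 1.00, named here after its value was seen.

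Other genes linked to T cell quiescence gave 10 lower under IL-2, 4 under IL-4, 1 under IL-7, 0 under IL-15 and 5 under IL-21 of 22 measured, and 1 higher under IL-4, Foxj1, which was named after its value was seen and lies under the background level. Under the block fit 15 were lower under IL-2, 11 under IL-4, 8 under IL-7, 0 under IL-15 and 9 under IL-21, with 1 higher under IL-4 and 4 under IL-21. The shares of all genes called lower were 8%, 5.1%, 0.747% and 3.29% under IL-2, IL-4, IL-7 and IL-21. They were 15.1%, 12.9%, 8.01% and 10.5% with the block. Mxd4, a MAX partner that opposes MYC, fell with 4 cytokines, at -4.21 under IL-2 (limma, adjusted p = 2.95e-06), -2.39 under IL-4, -2.28 under IL-7 and -2.99 under IL-21. Bach2, a repressor of effector genes, fell with 3, at -2.10 under IL-2, -1.48 under IL-4 and -1.26 under IL-21. Slfn2, whose loss breaks T cell quiescence in mice, fell by 2.22 under IL-2 (adjusted p = 0.000247). Lef1, a factor of naive and memory T cells, fell by 1.69 under IL-4 (adjusted p = 0.0033), and Pdcd4, an inhibitor of translation, fell by 1.63 under IL-21 (adjusted p = 0.00567).

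Of the close relatives of the 10 factors, 10 were measured. Among these 2 fell under IL-2, and 1 fell with each of IL-4, IL-7 and IL-21. In the block fit 3 fell under IL-2, 4 under IL-4, 3 under IL-7 and 4 under IL-21, where 1 rose. Among all genes, 8%, 5.1%, 0.747% and 3.29% were lower under IL-2, IL-4, IL-7 and IL-21 (15.1%, 12.9%, 8.01% and 10.5% with the block). Tsc22d1, a relative of Tsc22d3, was lower in all 4, at -1.42 ± 0.17 under IL-2 (limma, adjusted p = 4.64e-05), -1.35 under IL-4, -1.04 under IL-7 and -1.02 under IL-21. Its levels of 6.53 under IL-2 and 6.61 under IL-4 lie just below background. Tsc22d4 fell by 0.52 under IL-2 (adjusted p = 0.0139). The median change of the relatives lay between -0.21 and 0.01. Sesn2, the remaining sestrin, had changes of 0.38 under IL-2, -0.57 under IL-4, -0.64 under IL-7 and -0.61 under IL-21, and none passed.

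The machinery that the factors act through was measured as well. Of 14 CCR4-NOT and poly(A) genes, 1 fell in 3 of the 5 comparisons and 0 rose, the deadenylase gene Cnot6l each time, at -1.09 under IL-2, -0.82 under IL-4 and -0.94 under IL-21. Of 21 genes of PI3K, AKT and mTORC1, 2 rose and 1 fell under IL-2, 1 rose under IL-4, 1 rose under IL-7, and 1 rose and 1 fell under IL-21. Eif4ebp1, a translation inhibitor that mTORC1 switches off, rose by 2.04 under IL-2 (limma, adjusted p = 5.83e-05), 1.42 under IL-4, 1.25 under IL-7 and 1.03 under IL-21. Pik3cg, a PI3K catalytic subunit, rose by 1.17 under IL-2, Rictor, a subunit of mTORC2, fell by 0.57 under IL-2, and Pik3r5, a PI3K regulatory subunit, fell by 0.73 under IL-21. Of 13 GATOR and Rag genes that act between sestrins and mTORC1, 1 rose and 1 fell under IL-2, 1 fell under IL-4 and 0 passed with the others. Rragd rose under IL-2, with levels of 6.51 under IL-2 and 5.07 in media control that both lie under background. Castor2 fell, at -0.68 under IL-2 and -1.13 under IL-4. The replicate block changed these counts, and 4 CCR4-NOT and poly(A) genes rose and 3 fell under IL-2, 3 rose and 4 fell under IL-4, 2 rose and 1 fell under IL-7, and 2 rose and 5 fell under IL-21. The block gave 4 higher and 3 lower PI3K, AKT and mTORC1 genes under IL-2, 4 and 3 under IL-4, 2 and 0 under IL-7, and 5 and 4 under IL-21. Of the GATOR and Rag genes it called 6 higher and 2 lower under IL-2, 5 and 1 under IL-4, 3 and 1 under IL-7, and 5 and 0 under IL-21. In either direction limma called 2880 of all 18194 genes under IL-2, 1651 under IL-4, 306 under IL-7 and 1214 under IL-21. With the block it called 5560, 4686, 2974 and 3837. The 3 lists were not tested against these counts. The median change of each of these 3 lists lay between -0.15 and 0.33.

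**Figure D5:**
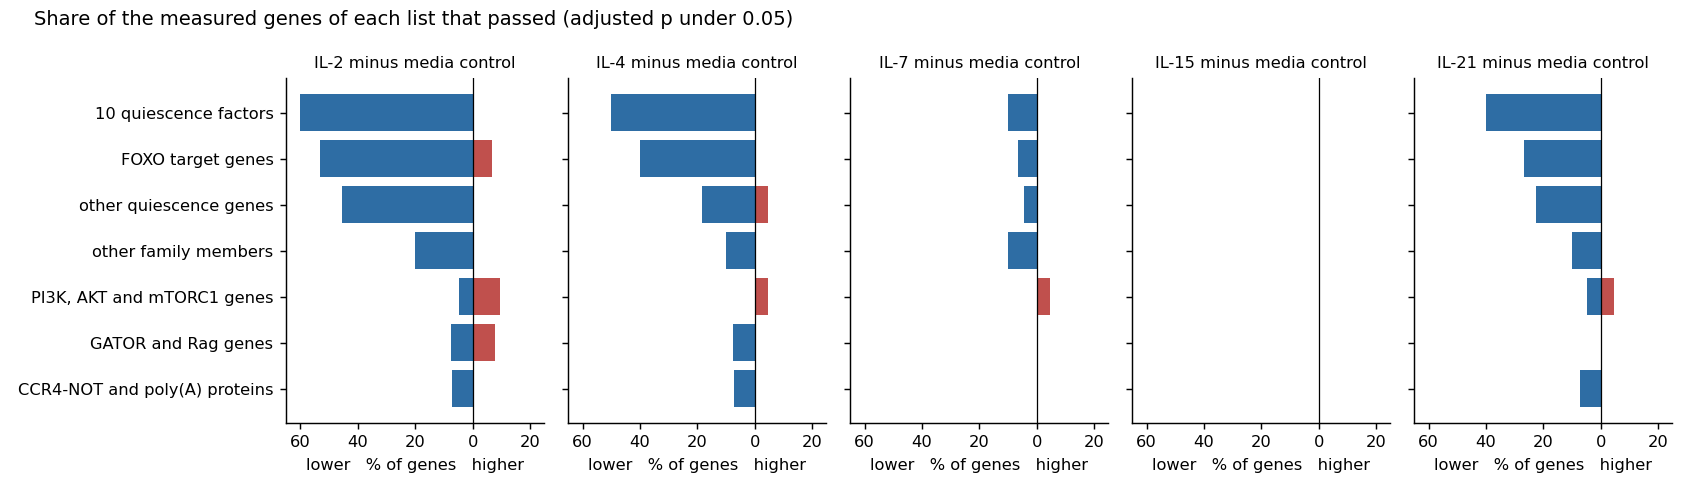
Percent of the measured genes of each list that passed at an adjusted p under 0.05 (horizontal axis), lower to the left of 0 and higher to the right, for each cytokine against media control. Over all genes the share called lower was 8% under IL-2, 5.1% under IL-4, 0.747% under IL-7 and 3.29% under IL-21. The 10 quiescence factors, the FOXO target genes and the other quiescence genes have their longer bars to the left in the IL-2 panel, the IL-4 panel and the IL-21 panel, with 1 FOXO target to the right under IL-2 and 1 other quiescence gene under IL-4, and no list has a bar under IL-15.

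Among 2164 or 2165 other genes that passed the F test over the 6 groups and lay over background, the genes whose 6 group means followed each factor most closely were ranked by Pearson's r. Pik3ip1 was followed most closely by Traf3ip3 (r = 1), Gtf2i (0.998) and Sesn3 (0.998), and Sesn3 by Cox7a2l (0.999), Abhd14b (0.998) and Traf3ip3 (0.998). Sesn1 was followed by Arhgef18 (0.999), Icam2 (0.997) and Dock11 (0.995), and Btg2 by Ikbkb, Arhgef1 and Pink1 (0.998 each). Btg1 was followed by Tpp1 (0.996), Cdipt (0.995) and Tcp11l2 (0.993), and Foxp1 by Kif23 (0.994), Abcg1 (0.989) and Prkca (0.987). The closest to Foxo1 were Ranbp10, Fam160b1 and Arhgap9 (0.997 to 0.999), to Foxo3 Atp1b3, Ssbp3 and Cxxc5 (0.981 to 0.985), to Tsc22d3 Inpp4a, Ggact and Tut4 (0.996 to 0.999) and to Tob1 Tmem184c, Snx13 and Klrk1 (0.938 to 0.975). With 6 points and this many candidates, values near 1 are easy to reach, and the points share arrays and normalization.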

How the data were processed

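RNA of 18 cultures, 3 in each of 6 groups, was hybridised to Affymetrix mouse 3′ arrays. The deposited values are log2 per probe set, which the authors made with RMA in Affymetrix Expression Console. No array file that precedes RMA was used here, which leaves background correction fixed. Of 45101 probe sets, 35890 are listed in the platform annotation, 34958 with 1 symbol, 932 with several, and 9211 are not listed. The last groups were left out, and some list genes are therefore not analysed here.

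The log2 values were quantile normalized again over the 18 arrays, since 3 arrays lie on a lower scale for a reason not given in the sources used here. The comparisons used limma 3.58.1 in R 4.3.3 (lmFit with a mean per group, 12 residual degrees of freedom, eBayes, two-sided), with Benjamini-Hochberg adjustment over 18194 genes per comparison and a threshold of 0.05. No filter on low levels was applied, so every share of all genes or of all probe sets counts those under the background level too. RNeasy was the kit for replicates 1 and 2, and TRIzol followed by Direct-zol for replicate 3, so kit and replicate 3 cannot be told apart. Precision is limited by 3 arrays per group.

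Deviations from the group means correlated between arrays of one number (45 pairs, lowest 0.442, median 0.598) more than between arrays of unlike numbers (90 pairs, highest 0.383). Replicate numbers were therefore taken to pair samples, from the data and not from a stated pairing, and a fit with the number as a block is given beside the other where it changes the call of a member or the count of a list. The fit was also run on simulated arrays with changes of known size. Their noise was independent between arrays, so that run does not cover deviations shared within a replicate number.

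All 10 members are named. Of each other list, up to 3 genes per cytokine are named that passed with the largest absolute change, and per member the 3 genes most like it. The members and lists were chosen with earlier results of these data known. Alternatives were the deposited scale, median centring, the block, the kit, a filter at the background level, the mean or another of a gene's probe sets, a trended prior, and leaving out arrays.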

Additional observations from a re-analysis of the deposited data

How the results depend on the processing

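Counts of members called lower, and of all genes called, moved with the scale and with the pairing. Before alternatives, limma called 2880 genes under IL-2, 1651 under IL-4, 306 under IL-7, 0 under IL-15 and 1214 under IL-21. As deposited, the members called were 1 under IL-2 and 0 with each of IL-4, IL-7 and IL-21, and 0 between cytokines, with 74 genes for IL-2, 67 for IL-4, 8 for IL-7 and 90 for IL-21. With the deposited values and the replicate block, the members were 4 under IL-2, 1 under IL-4, 0 under IL-7 and IL-21, and 11 combinations between cytokines, with 754 genes for IL-2, 710 for IL-4, 165 for IL-7 and 555 for IL-21. With the replicate block after quantile normalization, 8 members passed under IL-4, 6 under IL-7, 7 under IL-21 and 38 combinations between cytokines, with 5560 genes for IL-2, 4686 for IL-4, 2974 for IL-7 and 3837 for IL-21. With the kit as a term, 4 members passed under IL-7 and 24 combinations between cytokines, with 4853 genes for IL-2, 3624 for IL-4, 1705 for IL-7 and 2807 for IL-21. Besides Foxo1, the kit term brought in Foxp1 under IL-4 (limma, adjusted p = 0.00133) and Btg2 under IL-21 (0.0355). Under IL-7 it brought in Btg1 (0.0262), Pik3ip1 (0.0377) and Sesn1 (0.0483). Median centring left 0 members and 191 genes under IL-7, 2 members under IL-21 and 8 combinations between cytokines. It lost Foxp1 under IL-2 (adjusted p = 0.135), Sesn3 under IL-7 (0.0839) and IL-21 (0.0564), and Pik3ip1 under IL-21 (0.0767). The filter at the background level gave 528 genes under IL-7, and the mean of the probe sets 2 members under IL-7. Foxp1 under IL-4 passed with that filter (adjusted p = 0.0284), that mean (0.0106), a trended prior (0.0458) and without the 3 lower arrays (0.012). Btg1 under IL-7 passed with that mean (0.0354). Btg2 under IL-4 was lost with that mean (0.182) and without the 3 lower arrays (0.146), and Pik3ip1 under IL-21 without those arrays (0.11). The deposited values include the 3 arrays on the lower scale, and what moves the counts under any alternative was not tested.

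The fits that left out 1 array or 1 replicate number had no block. In them the members called ranged from 4 to 7 under IL-2 and from 2 to 6 under IL-4. The range was 0 to 2 under IL-7, 1 to 5 under IL-21 and 2 to 17 combinations between cytokines. The genes called ranged from 982 to 4264 under IL-2, 393 to 2312 under IL-4, 0 to 608 under IL-7, 0 to 1 under IL-15 and 247 to 1660 under IL-21. Of the 16 member calls against media control, 10 were kept on leaving out each array singly. Some of those 10 were lost without a whole replicate number. Under IL-2 these were Btg1 (without replicate 1, limma, adjusted p = 0.109) and Btg2 (without 2, 0.0777). Under IL-4 they were Pik3ip1 (without 1, 0.0637, or 3, 0.0534) and Sesn3 (without 1, 0.0596). Under IL-21 it was Foxp1 (without 1, 0.191, or 2, 0.0996). Pik3ip1, Sesn1 and Sesn3 under IL-2, and Sesn1 under IL-4 and IL-21, were kept without any array or number. No called change turned its sign under any alternative run.

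Changes that had not passed did change sign. As deposited, with or without the block, Btg1 under IL-21 was 0.23, Foxo1 was 0.10 under IL-21 and 0.04 under IL-7, Foxo3 was 0.39 under IL-21, 0.34 under IL-4 and 0.50 under IL-7, Foxp1 was 0.01 under IL-15 and 0.35 under IL-7, Tob1 was 0.44 under IL-21, 0.14 under IL-4 and 0.32 under IL-7, and Tsc22d3 was 0.06 under IL-7. Median centred, Foxo3 was 0.07 under IL-7 and Foxp1 0.01 under IL-15. With the mean of the probe sets Foxo3 was 0.11 under IL-21 and Tob1 0.01 under IL-2. Without the 3 lower arrays Foxo3 was 0.05 and Foxp1 0.07 under IL-15. On leaving out arrays or numbers, Foxo3 ran from -0.28 to 0.27 under IL-15, -0.50 to 0.17 under IL-2, -0.33 to 0.28 under IL-21, -0.40 to 0.08 under IL-4 and -0.26 to 0.18 under IL-7. Foxp1 under IL-15 ran from -0.14 to 0.18. Tob1 ran from -0.35 to 0.30 under IL-15, -0.36 to 0.18 under IL-2, -0.30 to 0.26 under IL-21 and -0.45 to 0.08 under IL-7. Tsc22d3 ran from -0.61 to 0.38 under IL-15 and -0.89 to 0.04 under IL-7. At other probe sets, Foxo1 (1456529_at, under background) was 0.16 under IL-2, 0.51 under IL-4, 0.35 under IL-7, 0.05 under IL-15 and 0.23 under IL-21. Foxo3 (1450236_at, under background) was 0.16, 0.39, 0.07, 0.04 and 0.50 in the same order. Tsc22d3 (1444365_at, under background) was 0.26 under IL-2, 0.23 under IL-4, 0.16 under IL-15 and 0.08 under IL-21, and 0.04 under IL-15 at 1425557_x_at. Foxp1 was 0.29 under IL-7 and 0.13 under IL-15 at 1421141_a_at, and 0.03 under IL-7 and 0.05 under IL-15 at 1438802_at. Tob1 was 0.14 under IL-2 at 1440844_at (under background), and Sesn1 0.22 under IL-15 at 1438931_s_at.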

Other observations

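Genes of the p53 response, to which Sesn1 is also known to belong, did not move one way. Of 12 measured, 2 rose and 2 fell under IL-2, 1 rose and 3 fell under IL-4, 1 rose and 2 fell under IL-21, and 0 passed under IL-7 or IL-15 by limma. With the replicate block 3 rose and 2 fell under IL-2, 3 rose and 3 fell under IL-4, 1 rose and 3 fell under IL-7, and 3 rose and 3 fell under IL-21. Over all 18194 genes, 2880 were called in either direction under IL-2, 1651 under IL-4, 306 under IL-7 and 1214 under IL-21. The block gave 5560, 4686, 2974 and 3837. Cdkn1a, the cell cycle inhibitor p21, rose by 2.55 under IL-2 (limma, adjusted p = 1.43e-05), 1.66 under IL-4 and 1.55 under IL-21. Trp53inp1, a p53 cofactor, fell, at -1.74 under IL-2, -1.60 under IL-4 and -0.70 under IL-21. Aen, a nuclease, rose by 1.11 under IL-2, and Bbc3, which encodes the death protein PUMA, fell, at -1.01 under IL-4 and -0.80 under IL-21. The median change of the list lay between -0.12 and 0.11 over the 5 cytokines.

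Glucocorticoid response genes, the class that gave the protein of Tsc22d3 its name, had more genes higher than lower under IL-21, and most did not pass. Of 12 measured, 4 rose and 1 fell under IL-21, 2 rose and 2 fell under IL-4, 1 rose under IL-2 and 0 passed under IL-7 or IL-15 by limma, and the median change under IL-21 was 0.60. Fitted with the block, 7 rose and 3 fell under IL-21, 3 rose and 5 fell under IL-4, 4 rose and 2 fell under IL-2, and 2 rose and 2 fell under IL-7. All genes called in either direction numbered 1214 of 18194 under IL-21, 1651 under IL-4, 2880 under IL-2 and 306 under IL-7. They numbered 3837, 4686, 5560 and 2974 with the block. The metallothionein gene Mt2 rose by 1.95 under IL-21 and 1.47 under IL-2, and Mt1 by 1.81 under IL-21. Cebpd, a basic leucine zipper factor, rose under IL-21 (limma, adjusted p = 8.81e-07), to a level of 7.87, against 4.61 in media control, which is below background, so its change has no exact size. Its call under IL-4 (adjusted p = 0.0361) was between levels of 5.47 and, in media control, 4.61, both below background. Fkbp5, a steroid receptor cochaperone, rose by 1.04 under IL-4, and Il7r, the IL-7 receptor chain, fell by 1.67 under IL-4. Tsc22d3 itself had a change of -0.86 under IL-21, which did not pass (adjusted p = 0.449).

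Proliferation genes were high in every group, with a mean of 11 genes between 11.77 and 12.24 on every array. Mcm2, a replication helicase subunit, rose by 0.78 under IL-2 and 0.93 under IL-4, and Ccne1, cyclin E1, rose by 0.72 under IL-2 and 0.66 under IL-21. The other measured genes of that list, Mki67 and Top2a among them, did not pass with any cytokine without a block. The block fit had 4 genes of the list higher under IL-2, 5 under IL-4, 4 under IL-7 and 0 under IL-15, and 2 higher and 1 lower under IL-21. Beside these, it called 5560 of all 18194 genes in either direction under IL-2, 4686 under IL-4, 2974 under IL-7 and 3837 under IL-21. Without the block the numbers were 2880, 1651, 306 and 1214.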
